A study of Mus musculus with 6 samples.

Results

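Kruppel-like factors are transcription factors that bind CACCC and other GC-rich boxes through zinc fingers at their carboxyl end, and their varied amino ends recruit activators or repressors. The members followed here in the mouse trigeminal ganglion, where sensory neurons of the face and the meninges have their cell bodies, were Klf2, Klf3, Klf4, Klf6, Klf7, Klf9, Klf10, Klf12, Klf13 and Klf15. They were chosen by gene symbol, and all 10 were found among the 17524 genes of the deposited table. The series title places KLF4 in a pathway with SETDB2, IDE and CGRP in sensory neurons and migraine.

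Poly(A)-selected RNA was sequenced from 3 libraries of NTG-treated mice and 3 libraries of vehicle-treated mice, all wild type and all from the trigeminal ganglion. NTG, not spelled out in the labels, is the usual abbreviation of nitroglycerin in this field. No label used here states the strain, age, sex, dose or time after dosing. Values are read counts that the authors divided by a size factor per library, called normalised reads below. Recovered whole reads came to 19293926, 19248592 and 23774244 in NTG replicates 1 to 3 and to 18813027, 20191300 and 18825239 in vehicle replicates 1 to 3. Whether each replicate is its own animal is not stated, and the spread behind every p-value is that between these samples. The tissue label was checked against 12 sensory neuron markers, all of which were detected and which summed to 21936 to 22611 CPM in NTG libraries and 22590 to 23747 CPM in vehicle libraries. Their mean level was 9.951 to 9.997 log2 CPM in NTG libraries and 10.06 to 10.10 in vehicle libraries, without overlap. The whole ganglion was sequenced, so fewer cells of a type and less RNA per cell cannot be told apart.

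Members of the family are known for separate tasks. In endothelium, KLF2 and KLF4 are switched on by blood flow through the MEKK3, MEK5 and ERK5 kinases and MEF2 factors, and they hold the vessel wall in a resting, anti-inflammatory state. In neurons, work in mice and fish has placed KLF6 and KLF7 among the factors that favour axon growth and KLF4 and KLF9 among those that limit it. KLF9, KLF13 and KLF15 belong to glucocorticoid, thyroid hormone and clock programmes in several tissues.

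The sequence just before the start of transcription is shown for Klf4, which the series title names, and for Klf2, Klf9 and Klf13, on which the comparison below turns. Each is the 250 bases before the RefSeq start on GRCm38.p6, read 5′ to 3′ on the gene's strand. Capitals mark CACCC boxes (CACCC or GGGTG), the core of a MEF2 site (CTA and TAG with 4 bases of any kind between them), the short form of the cyclic AMP response element (TGACG or CGTCA) and the E-box CACGTG of the clock factors, searched on both strands.
Klf2: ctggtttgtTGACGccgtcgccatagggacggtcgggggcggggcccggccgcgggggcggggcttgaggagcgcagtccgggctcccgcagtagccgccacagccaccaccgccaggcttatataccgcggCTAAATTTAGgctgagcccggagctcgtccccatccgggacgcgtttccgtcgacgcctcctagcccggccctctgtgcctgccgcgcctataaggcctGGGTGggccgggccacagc
Klf4: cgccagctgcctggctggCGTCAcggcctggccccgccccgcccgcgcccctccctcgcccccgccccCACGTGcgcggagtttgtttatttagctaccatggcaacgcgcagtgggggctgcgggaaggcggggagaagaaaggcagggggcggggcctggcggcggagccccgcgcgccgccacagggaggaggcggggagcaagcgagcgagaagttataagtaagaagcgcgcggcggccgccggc
Klf9: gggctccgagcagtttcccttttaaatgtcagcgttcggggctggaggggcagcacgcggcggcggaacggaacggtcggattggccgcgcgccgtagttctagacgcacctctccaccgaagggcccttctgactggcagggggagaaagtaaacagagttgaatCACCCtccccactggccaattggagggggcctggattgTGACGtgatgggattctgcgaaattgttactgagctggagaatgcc
Klf13: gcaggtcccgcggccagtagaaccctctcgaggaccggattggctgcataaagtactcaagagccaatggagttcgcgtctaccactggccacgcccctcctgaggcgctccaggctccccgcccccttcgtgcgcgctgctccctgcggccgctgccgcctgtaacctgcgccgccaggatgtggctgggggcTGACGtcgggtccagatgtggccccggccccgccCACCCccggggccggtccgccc
The windows lie at chr8:72318812-72319061 on the plus strand for Klf2, chr4:55532476-55532725 on the minus strand for Klf4, chr19:23140976-23141225 on the plus strand for Klf9 and chr7:63938916-63939165 on the minus strand for Klf13. Their GC content was 71.2% for Klf2, 74.0% for Klf4, 59.6% for Klf9 and 71.6% for Klf13, against a median of 52.4% over all 32851 windows of the same length. Klf2 held 29 CpG dinucleotides, Klf4 32, Klf9 18 and Klf13 24, against a median of 6.

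Klf2 alone among the 9 members with a RefSeq window held the letters of a MEF2 site, CTAAATTTAG, at positions -118 to -109 counted back from the start. Such a match occurred in 3.20% of all windows. Its CACCC box, read as GGGTG, lay at -19 to -15. The Klf4 window held no CACCC box, while 7 of the 9 member windows and 52.0% of all windows held one. It did hold a CACGTG E-box at -182 to -177, a motif found in 3 of the 9 member windows and 6.02% of all windows. Klf9 and Klf13 each had 1 CACCC box and 1 short cyclic AMP response element, TGACG, which was present in 6 of 9 member windows and in 17.8% of all windows. The full cyclic AMP response element TGACGTCA, which contains TGACG, was in 0 member windows and in 1.55% of all windows. A match describes the letters of these windows and not binding by any factor.

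Levels were compared between genes as CPM per kilobase of transcript. Klf7 stood highest, at 31.6 ± 1.08 CPM per kilobase in NTG libraries and 30.2 ± 1.73 in vehicle libraries (SD, n = 3 each). Klf9 followed with 25.3 ± 0.453 in NTG and 28.3 ± 1.10 in vehicle, then Klf13 with 22.3 ± 0.713 in NTG and 25.6 ± 2.54 in vehicle. Klf7, Klf9 and Klf13 were thus the most abundant members by mean, and levels in the whole ganglion do not show which cells hold them. Klf15 and Klf6 came next, at 12.3 ± 0.501 and 12.6 ± 1.25 CPM per kilobase in NTG libraries and 14.5 ± 2.02 and 11.7 ± 0.694 in vehicle libraries. Klf2 had 7.13 ± 0.960 CPM per kilobase in NTG and 11.4 ± 2.48 in vehicle. Klf10, Klf3 and Klf12 averaged 5.70, 4.64 and 2.79 CPM per kilobase in NTG libraries and 5.50, 4.22 and 2.65 in vehicle libraries. Klf4 was the lowest of the 10, at 1.93 ± 0.222 in NTG and 2.47 ± 0.304 in vehicle. Of the 9 neighbouring pairs in this order, the NTG libraries overlapped in 1 pair, Klf15 with Klf6. The vehicle libraries overlapped in 4, which were Klf7 with Klf9, Klf9 with Klf13, Klf6 with Klf2, and Klf12 with Klf4.

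**Figure D1:**
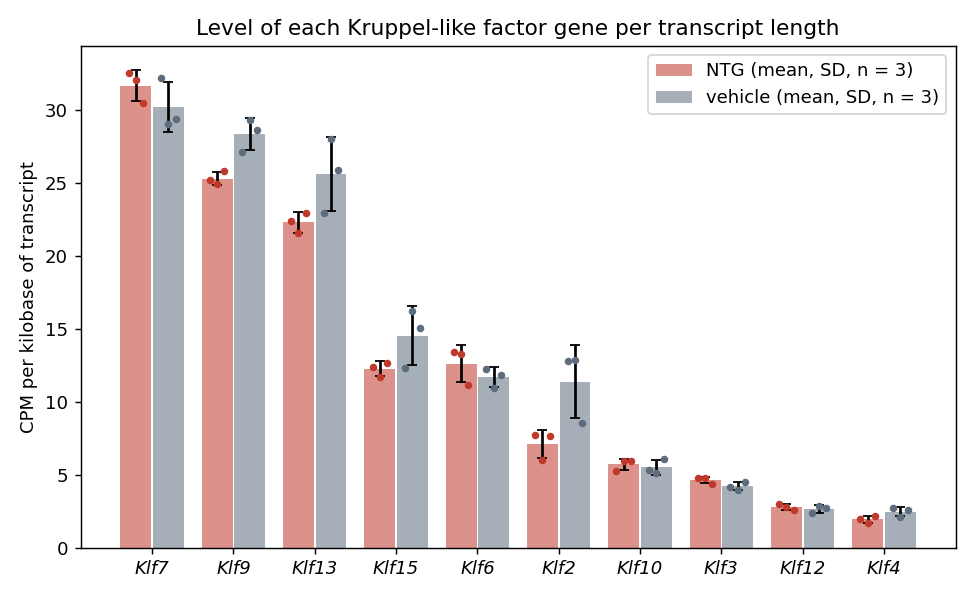
Levels of the 10 members in CPM per kilobase of transcript, as bars of the group mean with SD and 1 point per library, NTG and vehicle. Klf7 lies highest, near 30, and Klf4 lowest, near 2.

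Between NTG and vehicle, 3 members fell and none rose (limma-trend on log2 of the value plus 1, two-sided, Benjamini-Hochberg adjustment over 17475 genes, threshold 0.05). These were Klf2, Klf9 and Klf13. Over all genes tested, 25.8% passed the threshold, 13.5% lower and 12.3% higher in NTG. The 3 of 10 called is a share near the 25.8% called in either direction. All 3 were lower, a larger share than the 13.5%, but it rests on 10 genes and was not tested. The quasi-likelihood test of edgeR on recovered reads also called 3 lower and 0 higher, against 13.3% lower and 12.7% higher over all genes. At an unadjusted limma p under 0.05, 5 members were lower and 0 higher. The share of all genes at that unadjusted level was not counted, so these 5 have no background here. The median log2 fold change of the 10 members was -0.07, against 0.00 for all genes. The NTG and vehicle libraries did not overlap for Klf2, Klf4 and Klf9, each lower in NTG; groups did not overlap for 39.7% of all genes tested and were lower in NTG without overlap for 20.0%.

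Base composition moved with the groups and touches each member below. The slope of log2 expression on transcript GC content, per 10 percentage points, was -0.22, -0.17 and -0.08 in NTG replicates 1 to 3 and 0.11, 0.19 and 0.17 in vehicle replicates 1 to 3. For each member the fold change is also given after each library's smooth trend over GC content and length was removed, as the GC-adjusted value. In that fit 9.04% of 15084 genes passed, 5.56% lower in NTG, and 1 member, Klf9, fell. All 10 members then had a log2 fold change below 0, as did 49.3% of all genes, with a median of -0.11 against 0.00 for all genes. As deposited, 5 of 10 were below 0, against 49.9% of all genes.

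**Figure D2:**
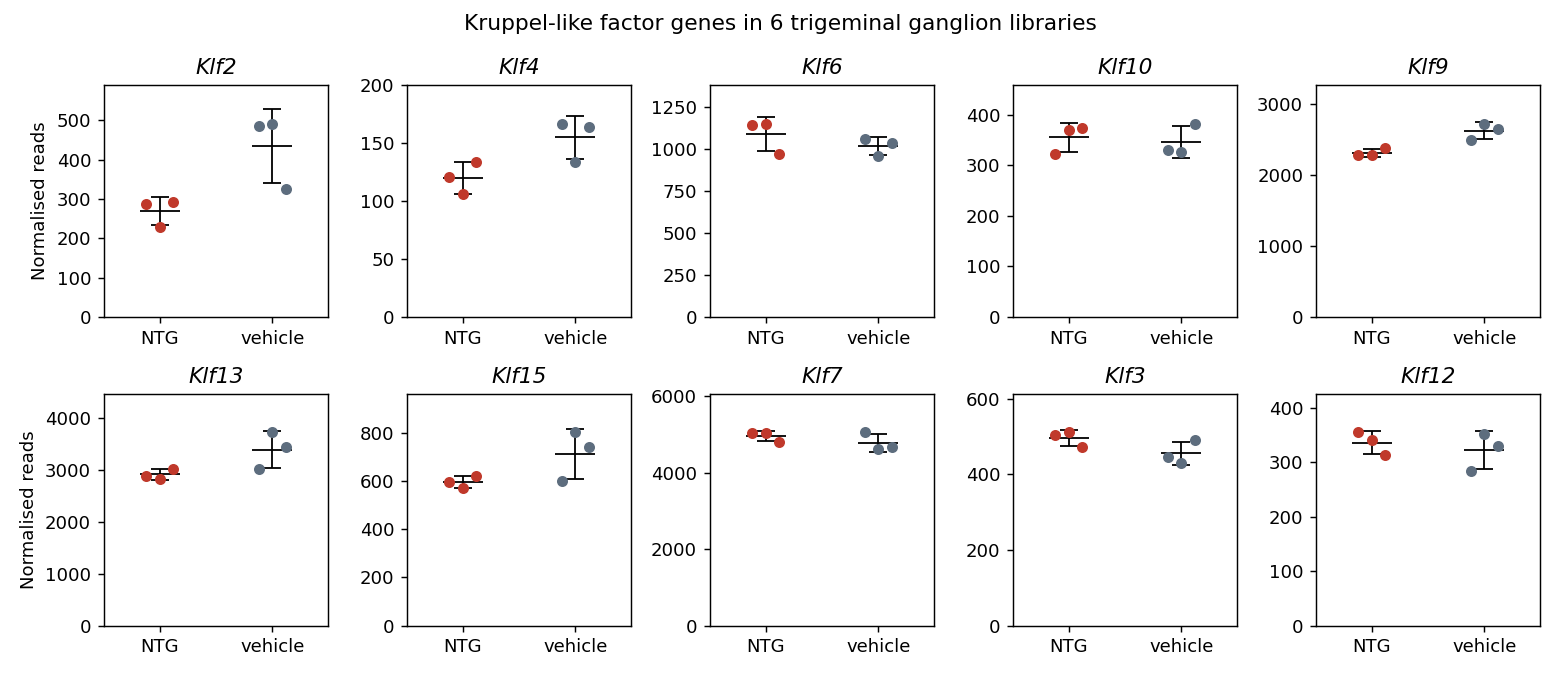
Normalised reads of each member in the 6 libraries, NTG left and vehicle right in each panel, with the mean and SD. Klf2, Klf4 and Klf9 have no overlap between groups, and the closest approach is in Klf4, where 133.5 in NTG lies beside 133.8 in vehicle.

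Klf2, the flow-induced factor of endothelium, fell most. It had 287, 228 and 292 normalised reads in NTG replicates 1 to 3, against 485, 492 and 326 in vehicle replicates 1 to 3. Every NTG library was below every vehicle library, and vehicle replicate 3 lay well below the other vehicle libraries. The means were 269 ± 35.5 in NTG and 434 ± 93.8 in vehicle (SD, n = 3 each), 1.61-fold lower in NTG. This is a log2 fold change of -0.67 ± 0.15 (SE) at a limma adjusted p of 0.00322, and the call held when any 1 library was left out. Klf2 also has the highest GC content of the members, 61.6% of its transcript, above 97.4% of protein-coding genes. Its GC-adjusted log2 fold change was -0.32, with a 95% interval of -0.64 to -0.01, and did not pass the threshold (limma adjusted p = 0.203). Of the 6 GC-adjusted fits that left out 1 library, 1 passed, without vehicle replicate 3, at -0.52 (limma adjusted p = 0.00282), and the others gave -0.41 to -0.21 (limma adjusted p 0.172 to 0.523).

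Klf4, a reprogramming factor that shares endothelial roles with Klf2 and limits axon growth in mouse retinal neurons, had 120, 106 and 133.5 normalised reads in NTG replicates 1 to 3. Vehicle replicates 1 to 3 had 167, 133.8 and 164. The groups were separated by 0.290 normalised reads, less than the value of 1 read. Whole reads behind these values numbered 115, 99 and 154 in NTG and 153, 130 and 149 in vehicle, the smallest of any member. The log2 fold change was -0.37, with a 95% interval of -0.71 to -0.02, at an unadjusted p of 0.0378 and a limma adjusted p of 0.110. The adjusted p was 0.0640 at its lowest, without vehicle replicate 2, and the threshold was passed under 0 of 26 alternatives. Its GC-adjusted log2 fold change was -0.24, with an interval of -0.58 to 0.09 (limma adjusted p = 0.410). The fold change was below 0 in all 26 alternatives.

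Both genes are expressed by endothelium, so 12 endothelial markers were set beside them. Of these, Tek, an endothelial receptor gene, rose, and Cldn5 and Vwf, a tight junction gene and the von Willebrand factor gene, fell, with a median log2 fold change of 0.15 against 0.00 for all genes, and no GC-adjusted member of the list passed. The markers summed to 246 to 254 CPM in NTG libraries and 240 to 284 CPM in vehicle libraries, which overlap, and none was at 0. The log2 ratio of Klf2 to the mean endothelial marker level was -0.27, -0.69 and -0.29 in NTG replicates 1 to 3, against 0.32, 0.59 and -0.07 in vehicle replicates 1 to 3. The difference was -0.70, and the groups did not overlap. For Klf4 the ratio was -1.46, -1.73 and -1.36 in NTG, against -1.17, -1.21 and -1.02 in vehicle, a difference of -0.39. Exact two-sided permutation gave p = 0.1 for each, the smallest that 3 against 3 allows, and 0.15 after adjustment over the 3 ratios computed. The third ratio, Klf2 to Klf4, differed by -0.31 (exact permutation p = 0.4). These ratios were chosen after the values had been seen and were not adjusted for GC content. No ratio to markers of another cell type was computed. For example, 10 fibroblast markers summed to 1058 to 1233 CPM in NTG libraries and 1275.5 to 1417 CPM in vehicle libraries, without overlap. The part of other cell types in the Klf2 and Klf4 values was not tested.

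Klf9 and Klf13 are repressors that recruit the SIN3A corepressor, and Klf9 is induced by glucocorticoids and thyroid hormone. Klf9 had 2283, 2291 and 2383 normalised reads in NTG replicates 1 to 3, against 2493, 2728 and 2658 in vehicle replicates 1 to 3. All NTG libraries were below all vehicle libraries, with means of 2319 ± 55.4 in NTG and 2626 ± 120.4 in vehicle (SD, n = 3 each). The log2 fold change was small, -0.18 ± 0.06 (SE, limma adjusted p = 0.0296). It missed the threshold when NTG replicate 1, NTG replicate 2, vehicle replicate 2 or vehicle replicate 3 was left out, with limma adjusted p of 0.0893, 0.114, 0.122 and 0.0757. Klf9 was the single member whose difference was larger after GC adjustment and passed, at -0.30 ± 0.06 (SE, limma adjusted p = 0.000834). That call held without any 1 library, with limma adjusted p up to 0.0153.

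Klf13, known from T cells and widely expressed, had 2888, 2826 and 3025 normalised reads in NTG replicates 1 to 3 and 3008, 3722 and 3433 in vehicle replicates 1 to 3. NTG replicate 3 overlapped vehicle replicate 1. Means were 2913 ± 102 in NTG and 3387 ± 359 in vehicle (SD, n = 3 each), with a log2 fold change of -0.21 (limma adjusted p = 0.0256). The call was lost without NTG replicate 1 or 2 or vehicle replicate 2 or 3, at limma adjusted p of 0.0676, 0.110, 0.175 and 0.0712. After GC adjustment the difference was -0.06 (limma adjusted p = 0.554).

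Klf15, which directs amino acid and glucose metabolism under glucocorticoids in mouse liver and muscle, showed the same library order as Klf13. Its values were 595, 570 and 619 normalised reads in NTG replicates 1 to 3 and 598, 801 and 739 in vehicle replicates 1 to 3. Vehicle replicate 1 lay among the NTG libraries. The log2 fold change was -0.25, with a 95% interval of -0.45 to -0.05 (limma adjusted p = 0.0631). Without vehicle replicate 1 it was -0.37 (limma adjusted p = 0.00433), without vehicle replicate 2 it was -0.16 (limma adjusted p = 0.286), and no other fit that left out 1 library passed (limma adjusted p 0.0717 to 0.203). After GC adjustment of all 6 libraries it was -0.07 (limma adjusted p = 0.701). Klf15 is abundant in skeletal muscle, and 9 muscle markers were set beside it. Of these 6 fell and 0 rose in limma and in edgeR, against 13.5% lower over all genes in limma. With GC adjustment 4 fell and 0 rose, against 5.56% lower over all genes. At an unadjusted limma p under 0.05, 7 were lower and 0 higher, a level at which no share of all genes was counted. The mean level of the 9 markers was 0.50 to 0.53 log2 CPM in NTG libraries and 1.15 to 1.60 in vehicle libraries. Their summed level did overlap, at 63.0 to 69.6 CPM in NTG libraries and 68.9 to 75.2 CPM in vehicle libraries. The gene of fast troponin T, Tnnt3, was at 0 in NTG replicate 2. The part of muscle RNA in the Klf15 values was not tested.

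The other 5 members did not pass the test. Klf7, which mouse embryos need for the development of pain-sensing neurons, had 5031, 5037 and 4806 normalised reads in NTG replicates 1 to 3 and 5053, 4620 and 4664 in vehicle replicates 1 to 3. Its log2 fold change was 0.05 (limma adjusted p = 0.509), and GC adjustment gave -0.12 (limma adjusted p = 0.104). Klf6, an injury- and growth-responsive factor, had 1142, 1153 and 973 in NTG, against 1062, 958 and 1039 in vehicle. These groups overlap, at a log2 fold change of 0.09 as deposited (limma adjusted p = 0.426) and -0.15 after GC adjustment (limma adjusted p = 0.180). Klf10, the early TGF-beta-induced member, had 322, 370 and 373 in NTG, against 330, 325 and 382 in vehicle. Its groups overlapped, with a log2 fold change of 0.04 (limma adjusted p = 0.842) and a GC-adjusted one of -0.09 (limma adjusted p = 0.675).

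Klf3 and Klf12 repress transcription through CtBP corepressors. Klf3 had 505, 511 and 472 normalised reads in NTG replicates 1 to 3 and 446, 429 and 490 in vehicle replicates 1 to 3, with a log2 fold change of 0.12 (limma adjusted p = 0.354). Klf12 had 355, 340 and 314 in NTG, against 284, 352 and 330 in vehicle, a log2 fold change of 0.07 (limma adjusted p = 0.722). For both, the groups overlapped, and GC adjustment gave -0.04 for Klf3 (limma adjusted p = 0.857) and -0.10 for Klf12 (limma adjusted p = 0.643). Klf3 overlaps the predicted gene Gm38457 on the opposite strand over 5660 bases. That gene held 78.6, 67.2 and 92.8 normalised reads in NTG and 156, 180 and 180 in vehicle, and since the strand setting of the counting is not given, reads of the pair may not be fully separated. The opposite-strand partners of Klf7 and Klf10 held at most 0.0322 of the reads of the member.

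**Figure D3:**
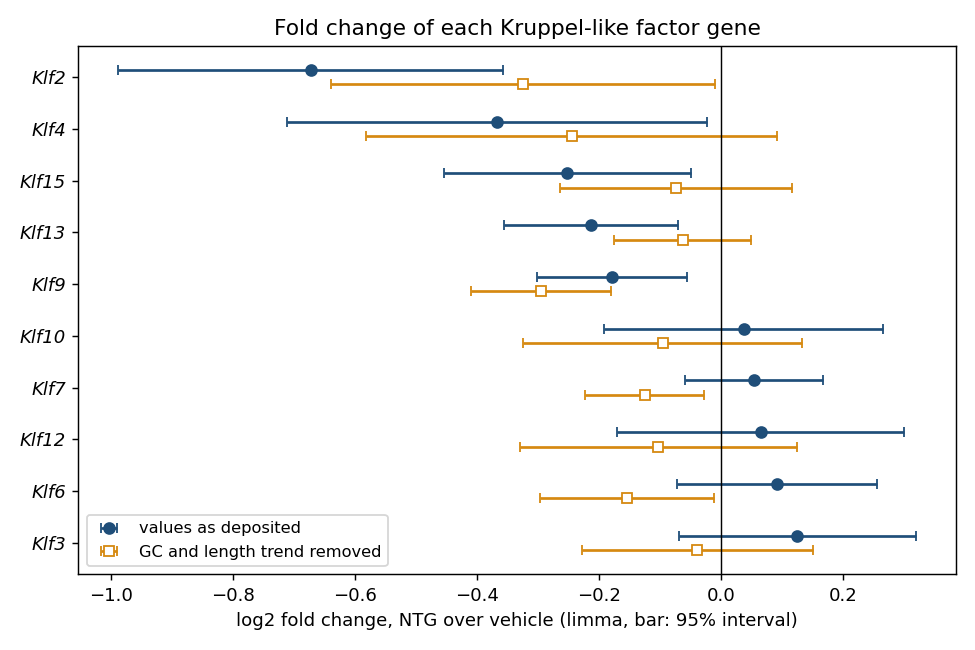
Log2 fold change of NTG over vehicle for each member with its 95% interval, as deposited and after removal of each library's GC and length trend. Klf2 moves most between the fits, -0.67 as deposited against -0.32 adjusted, and Klf9 is the one member past the threshold in both.

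Members above 50% transcript GC content were Klf2, Klf4, Klf13 and Klf15, and those 4 had the most negative fold changes as deposited. Their GC content was 61.6%, 54.6%, 55.5% and 56.5%. The 6 members under 50% ranged from 42.4% in Klf6 to 47.5% in Klf9, and of them Klf9 alone was below 0 as deposited. This describes 10 genes and was not tested.

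**Figure D4:**
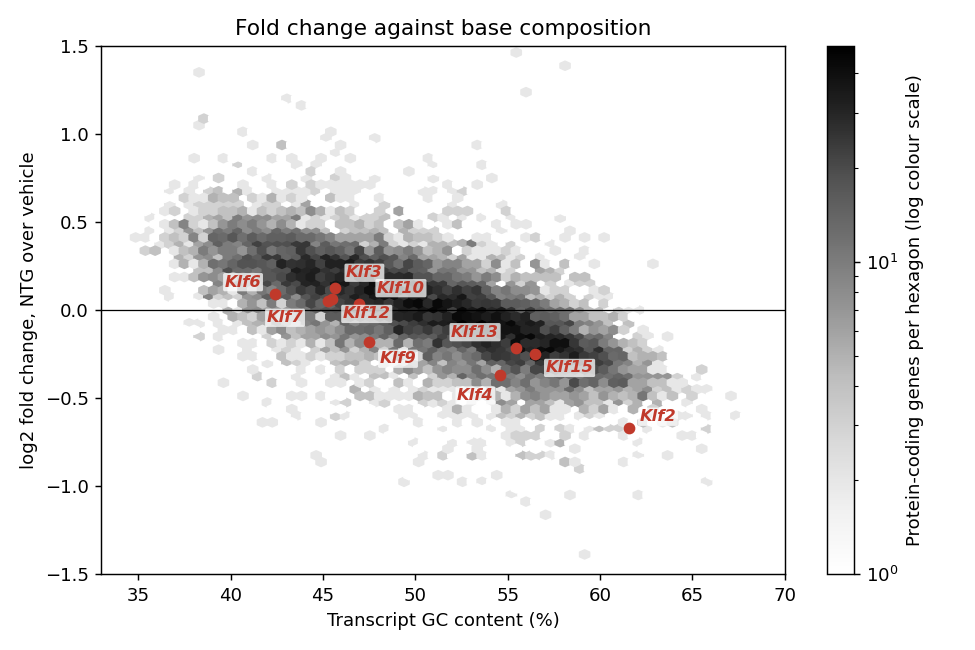
Log2 fold change of NTG over vehicle against transcript GC content for protein-coding genes as hexagons, with the 10 members marked; genes beyond the range of the axis are not drawn. The 4 members above 50% GC lie below 0, and Klf3, Klf6, Klf7, Klf10 and Klf12, below 50%, lie at or just above 0.

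Related genes were counted in lists of 9 pathways, given as rose and fell among those tested. Over all genes tested, 12.3% rose and 13.5% fell as deposited, and 3.49% rose and 5.56% fell with GC adjustment. Of 11 other KLF and SP genes, 2 rose and 2 fell. Sp1 and Sp4, activators of GC-box promoters, rose by a log2 fold change of 0.24 and 0.31, and Klf5 and Klf16 fell by 0.44 and 0.31. Klf5 promotes growth of epithelium and smooth muscle, and it had 357, 373 and 522 normalised reads in NTG against 497, 672 and 524 in vehicle. Among 14 cofactors and turnover factors, the deacetylase Hdac2 and the ubiquitin ligase Wwp1, which acts on KLF proteins, rose, with log2 fold changes of 0.31 and 0.44. Corepressor Ctbp1, coactivator Crebbp and the LIM protein Fhl3 fell by 0.24, 0.21 and 0.42. With GC adjustment, none of the 4 family members passed (limma adjusted p 0.111 to 0.982), while among the cofactors Crebbp and the acetyltransferase gene Kat2b were lower (limma adjusted p = 0.0323 and 0.0460).

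Of 12 genes of the flow pathway upstream of Klf2 and Klf4, 4 rose and 3 fell, against 12.3% and 13.5% of all genes, with a median log2 fold change of 0.00. Those that rose were Map3k2 (0.48), which encodes the kinase MEKK2, Mef2c (0.24), and the cerebral cavernous malformation genes Krit1 (0.37) and Pdcd10 (0.35), whose proteins restrain this pathway. Map3k3, encoding MEKK3, fell by 0.26, Mef2d by 0.26 and the flow-sensing channel gene Piezo1 by 0.36. None of these 7 passed after GC adjustment (limma adjusted p 0.212 to 0.894). Downstream, 6 endothelial targets were tested, of which Plvap, an endothelial diaphragm protein gene, fell by 0.49. Its GC-adjusted log2 fold change was -0.18 (limma adjusted p = 0.586), and the call as deposited held in 2 of the 6 fits that left out 1 library, with limma adjusted p up to 0.221. Nos3, endothelial nitric oxide synthase and a classical Klf2 target, had 112, 116 and 122 normalised reads in NTG against 154, 173 and 128 in vehicle. Its groups did not overlap, but it did not pass (log2 fold change -0.36, limma adjusted p = 0.116; GC-adjusted -0.13, limma adjusted p = 0.713). Thbd, the anticoagulant receptor thrombomodulin and another such target, had 670, 600 and 642 in NTG against 631, 572 and 653 in vehicle.

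Of 13 axon growth genes, 6 fell and 1 rose, against 13.5% lower and 12.3% higher over all genes. With GC adjustment 4 fell, against 5.56% lower over all genes. Basp1, a growth cone protein gene, had 3328, 2906 and 3810 normalised reads in NTG against 6875, 7166 and 6914 in vehicle, a log2 fold change of -1.07 (limma adjusted p = 7.45e-07). The injury-response factor gene Jun had 3144, 2960 and 3200 in NTG against 4199, 4420 and 4403 in vehicle. Gap43 and Cdkn1a, a growth cone protein gene and a cell cycle inhibitor gene regulated by KLF4 in other cells, fell by 0.23 and 0.31. These 4 also fell with GC adjustment, with log2 fold changes of -0.90 for Basp1, -0.33 for Jun, -0.30 for Gap43 and -0.20 for Cdkn1a. Socs3 and Stat3 fell by 0.40 and 0.15, and Stmn2 rose with a log2 fold change of 0.16. None of these 3 passed after GC adjustment. Sprr1a, an axon injury gene, was at 31.4, 2.13 and 4.33 in NTG and at 1.09, 0 and 11.0 in vehicle.

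Of 12 genes of the TGF-beta pathway that induces Klf10, 3 rose and 1 fell, against 12.3% higher and 13.5% lower over all genes. Tgfbr1, Smad2 and Skil rose by 0.38, 0.19 and 0.31 on the log2 scale, and Ski fell by 0.28. None passed with GC adjustment (limma adjusted p of these 4 from 0.129 to 0.982). Among 14 glucocorticoid-responsive genes, the list closest to Klf9 and Klf15, 2 rose and 4 fell, against the same shares of all genes. Ddit4, an inhibitor of mTOR signalling, had 2092, 2418 and 2595 normalised reads in NTG against 3862, 4437 and 3347 in vehicle. Nfkbia, the inhibitor of NF-kappa-B, had 654, 677 and 664 in NTG against 1098, 1006 and 794 in vehicle. Per1 fell by 0.39 and Dusp1 by 0.37, while the receptor gene Nr3c1 rose by 0.22 and Fam107a by 0.45. Ddit4, Nfkbia and Fam107a passed with GC adjustment (limma adjusted p = 0.0393, 0.00108 and 0.00553). Fkbp5 and Zbtb16, which glucocorticoids induce strongly, did not separate the groups. In vehicle replicate 3 they stood at 1532 and 708 normalised reads, against 930 to 1151 and 222 to 328 in the other libraries.

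Of 16 clock genes, 4 rose and 4 fell, against 12.3% higher and 13.5% lower over all genes. Dbp, an output factor of the clock, had 682, 500.2 and 543 normalised reads in NTG against 348, 341 and 364 in vehicle, a log2 fold change of 0.70 (limma adjusted p = 0.000102). Nr1d2, Per3 and Clock rose by 0.64, 0.50 and 0.43. Npas2 fell by 0.81, Cry1 by 0.36 and Bhlhe41 by 0.26, beside Per1. With GC adjustment Dbp, Nr1d2, Per2 and Tef were higher and Bhlhe41 and Npas2 lower, the Dbp log2 fold change was 1.05, and Clock, Per1, Per3 and Cry1 did not pass (limma adjusted p 0.0541 to 0.361). The labels used here do not state the time of day at collection. Of 8 metabolic targets of Klf15, limma called 0 in either direction, with 1 higher and 1 lower at an unadjusted p under 0.05 and 0 calls in edgeR. With GC adjustment Prodh and Kcnip2, genes of proline breakdown and of a potassium channel subunit, rose by 0.40 and 0.24.

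**Figure D5:**
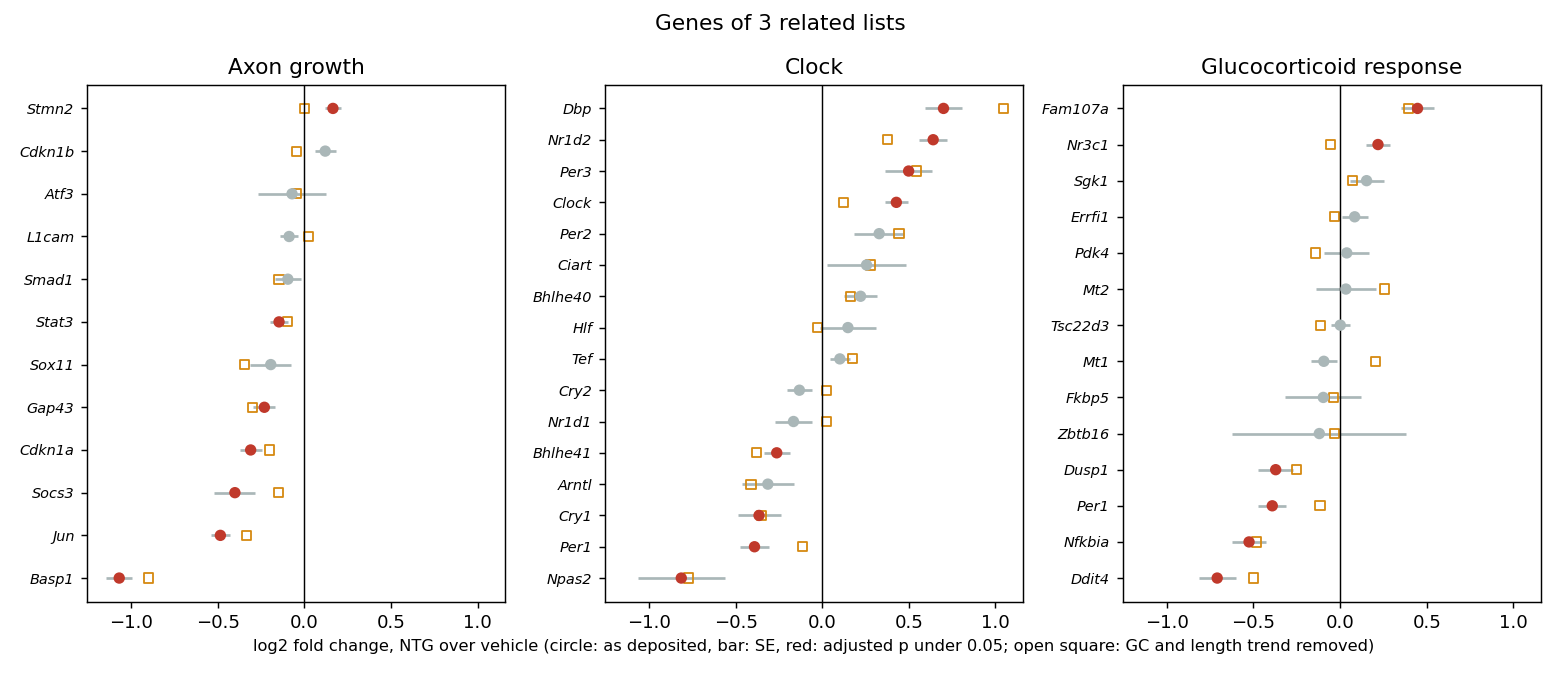
Log2 fold change of NTG over vehicle for the axon growth, clock and glucocorticoid lists, as circles with SE bars, red where the limma adjusted p is under 0.05, with open squares for GC-adjusted values; Sprr1a is left out for its wide error. Basp1 at -1.07 and Dbp at 0.70 lie at the ends of the called genes drawn.

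Over these 9 lists, 41 different genes were called, 16 of them in every fit that left out 1 library, and 12 of the 41 passed with GC adjustment. Those that did both numbered 8, which were Basp1, Jun, Cdkn1a, Ddit4, Nfkbia, Fam107a, Dbp and Nr1d2. Over all genes tested, 25.8% were called as deposited and 9.04% passed with GC adjustment. The share of all genes called in every fit that left out 1 library was not counted. When GC adjustment and leaving out 1 library were combined, Cdkn1a and Ddit4 each passed in 2 of 6 fits and Fam107a in 5 of 6. Basp1, Jun, Nfkbia, Dbp and Nr1d2 passed in 6 of 6. So did Gap43 and Bhlhe41, which are not among the 8 because each was called in 5 of 6 left-out fits as deposited. Among other cell markers, 4 of 10 fibroblast markers fell, with and without GC adjustment. Of all genes, 13.5% fell as deposited and 5.56% with GC adjustment. Of 10 mural cell markers 1 rose and 1 fell, as did 2 and 3 of 8 for satellite glia, 1 and 3 of 9 for Schwann cells, 1 and 2 of 10 for macrophages and 2 and 5 of 12 for sensory neurons, and 1 of 6 red cell genes fell. The shares over all genes for these counts as deposited were 12.3% higher and 13.5% lower.

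Genes with the most similar pattern over the 6 libraries were found by the mean absolute difference of centred log2 values among 13848 candidates. For Klf4 they were Grin2d, a glutamate receptor subunit gene, at 0.0414, Lipt2, a lipoate transferase gene, at 0.0436, and Ddx27, an RNA helicase gene, at 0.0517. The nearest member to Klf4 was Klf9, at 0.158. For Klf2 they were Ptges3l, Neurl2 and Snhg3, at 0.0713, 0.0746 and 0.0894. For Klf9 they were Ttll12, Chka and Tln1, at 0.0137, 0.0141 and 0.0145, and for Klf13 Sf1, Lemd3 and Spats2, at 0.0180, 0.0192 and 0.0195. The nearest member to Klf13 was Klf15, at 0.0381.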

How the data were processed

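Strand-specific paired-end libraries were made from TRIzol RNA after poly-T selection, per the labels' protocols. FastQC, HISAT2 and the build GRCm38 are named in the submitters' processing notes, and no source used here names the counting or normalization tool. The deposited values are a signal, gene counts divided by a size factor, of which 100% were whole reads within a tolerance of 0.01.

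The 17475 genes that reached a value of 1 in 3 or more libraries were tested with limma-trend (robust) on log2(value + 1), a scale that understates changes of low genes. GC content and length came from transcripts of 15133 genes (86.4%), and mgcv removed each library's trend. RefSeq windows matched 9 of 10 members. No library pair within a group was as close as sampling noise allows, and all 6 entered as separate samples. A gene that belongs with the axon growth list was left out of it and of its counts and is not reported here. The members, lists and tests were chosen with earlier results of these data known. Named genes were all members, the members of pathway lists past the threshold with up to 3 others of each, and the 3 most similar genes of Klf4 and of each member that passed. On simulated data without a GC trend between groups, the scripts called 0 genes where none had been changed. The real libraries carry such a trend, so this gives no error rate for the calls as deposited. Fits ran in limma 3.58.1, with mgcv 1.9.3 for trends and DESeq2 1.42.0, edgeR 4.0.16 and voom as alternatives, under R 4.3.3 and Python 3.11.15. Intervals cover the spread between libraries.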

Additional observations from a re-analysis of the deposited data

How the results depend on the processing

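Across 26 alternatives no member rose. Klf2, Klf9 and Klf13 fell in the 10 alternatives that changed the pseudocount, filter, scaling or test. A minimum fold of 1.2 left 313 genes and 0 members, with limma adjusted p = 0.183 for Klf2. GC and length adjustment left 1364 genes and 1 member. With the replicate number as a block 5254 genes and 4 members were called, Klf15 among them (limma adjusted p = 0.0270), and block with GC adjustment called 1892 genes and 2 members, with Klf7 added (limma adjusted p = 0.0400). Numbers did not pair the samples (correlations of deviations 0.004, -0.033 and -0.025). Leaving out 1 library gave 2945 to 4670 genes and 1 to 4 members, and with GC adjustment 656 to 1434 genes and 1 to 2 members. Klf4 rests on 99 to 154 reads per library.

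Directions changed for these genes, the cause of which was not tested beyond the GC adjustment itself. With GC adjustment, with or without the block, log2 fold changes were -0.038 in Klf3, -0.15 in Klf6, -0.12 in Klf7, -0.095 in Klf10, -0.10 in Klf12, 0.0060 in Klf16, -0.054 in Nr3c1, -0.056 in Pdcd10 and -0.010 in Sp4. Over all fits that left out 1 library, with and without GC adjustment, the ranges were -0.078 to 0.18 for Klf3, -0.20 to 0.17 for Klf6, -0.16 to 0.095 for Klf7, -0.15 to 0.11 for Klf10, -0.20 to 0.13 for Klf12 and -0.37 to 0.012 for Klf15. For list genes they were -0.40 to 0.045 for Klf16, -0.081 to 0.52 for Krit1, -0.088 to 0.26 for Nr3c1, -0.11 to 0.41 for Pdcd10, -0.060 to 0.36 for Skil, -0.039 to 0.24 for Smad2, -0.048 to 0.29 for Sp1, -0.11 to 0.37 for Sp4, -0.013 to 0.20 for Stmn2 and -0.055 to 0.49 for Tgfbr1. Differences of the ratios to endothelial markers stayed below 0 in 8 of 8 alternatives, at -0.87 to -0.54 for Klf2 and -0.46 to -0.28 for Klf4, none of which adjusts for GC content.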

Other observations

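Tat, the tyrosine aminotransferase gene of the liver and a Klf15 target, was at 196 normalised reads in NTG replicate 1, against 0 and 1.73 in the other NTG libraries and 0 to 4.12 in vehicle libraries. It is 1 of the 8 metabolic targets tested and did not pass (limma adjusted p = 0.398), and 1 library holds nearly all of its reads.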
